A study of Mus musculus with 6 samples.

Results

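Nuclear receptors are transcription factors, many of which are switched by a small lipid-soluble ligand such as a steroid, a retinoid, thyroid hormone, an oxysterol or a fatty acid. Several bind DNA as heterodimers with a retinoid X receptor (RXR), and without ligand some of them hold corepressors on DNA, which coactivators replace when ligand binds. Others, the orphan receptors, act without a known ligand and are set mainly by how much of them is made. In macrophages, including the microglia of the brain, members of the family are known for regulating lipid handling and restraining inflammatory genes.

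The nuclear receptor genes described here are the 42 protein-coding mouse genes whose symbols follow the family's naming (the Nr series, Rxr, Rar, Ppara and Ppard, Ror, Esrr, Thra, Thrb and Vdr), out of 21887 in a RefSeq table of the GRCm38.p6 (mm10) assembly. The pattern leaves out some receptors, among them Pparg, and it takes in Nr2c2ap, which encodes a receptor-associated protein and not a receptor. A peak was counted for a gene when the peak's midpoint lay nearest to an end of that gene among coding genes, up to 100 kb away. By this rule 29 of 12105 listed peaks belong to the family, and assignment by distance says nothing of which gene a peak acts on.

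The peaks come from ATAC-seq, in which the Tn5 transposase marks open chromatin, on microglia sorted from brains of C57BL/6J mice aged 8 weeks. In the knockout group (cKO) both Mir137 alleles, which encode miR-137, a microRNA, were flanked by loxP sites (Mir137 loxP/loxP;Tmem119-CreERT2). The control group (cWT) had unaltered alleles and the same driver (Mir137 +/+;Tmem119-CreERT2). Tmem119-CreERT2 is a tamoxifen-dependent recombinase under a microglial promoter. Mice of both genotypes received tamoxifen daily for 7 days at an age of 7 to 8 weeks, with 3 libraries per genotype from about 50000 cells. The series gives n = 4 mice and does not tie animals to libraries.

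The data are 1 list of peaks specific to cKO (8615 peaks) and 1 list specific to cWT (3490 peaks), without values per library. For each peak the authors give a signal of no stated scale and a p-value whose test is not stated. The spread between replicates therefore could not be measured, the sequencing depth is unknown, and intervals below cover counting error over peaks only. The nearest listed peaks to Mir137 lay 1280 kb away in cKO and 995 kb away in cWT, so the lists hold no check of the deletion. Of 10 microglial marker genes 7 had a cKO-specific and 2 a cWT-specific peak. The marker genes of other cells with a cKO-specific and with a cWT-specific peak numbered 1 and 1 of 6 for neurons, 4 and 2 of 6 for astrocytes, and 3 and 2 of 6 for oligodendrocytes and their precursors. They numbered 4 and 2 of 5 for endothelium, 2 and 2 of 6 for other macrophages and monocytes, and 2 and 1 of 6 for lymphocytes. Over all coding genes, the shares with a cKO-specific and with a cWT-specific peak were 22.5% and 11.4%. Lists of genotype-specific peaks do not show whether a marker is closed, and the part of other cells in the results below was not tested.

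miR-137 acts by pairing its seed, bases 2 to 8, with sites in messenger RNAs. The mature strand that the deletion targets is given here from RefSeq (GRCm38.p6, chr3:118433901-118433923, plus strand), with the seed in capitals, because its gene is the one floxed in cKO and unaltered in cWT.
miR-137-3p: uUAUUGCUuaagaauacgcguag

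A 300-base promoter window, 250 bases before to 50 after an annotated start, was found in RefSeq for 38 of the 42 genes, 54 windows in all; Nr3c1, Nr5a1 and Thra were among the genes without one. A single listed family peak touched one of them, at the second start of Rxrg, the gene of the RXR chain RXR-gamma. That window (GRCm38.p6, chr1:167618015-167618314, plus strand) is shown with the 91 bases that the cKO-specific peak covers in capitals.
Rxrg: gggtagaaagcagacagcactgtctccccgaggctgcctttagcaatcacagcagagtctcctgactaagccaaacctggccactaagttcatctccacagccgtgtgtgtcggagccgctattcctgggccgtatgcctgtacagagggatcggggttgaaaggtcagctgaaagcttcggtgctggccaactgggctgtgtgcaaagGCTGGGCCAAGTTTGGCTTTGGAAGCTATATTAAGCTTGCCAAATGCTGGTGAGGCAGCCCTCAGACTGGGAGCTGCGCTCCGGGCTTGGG
Bases 161 to 168 of this window read AAAGGTCA, the element that NR4A receptors bind as monomers, and they lie outside the peak. Searched on both strands, AAAGGTCA stood in 2 of the 54 family windows (3.7%), this one and the second window of Rxra, and in 1.3% of all 21263 windows of coding genes. AGGTCA, the shorter core that most of the family recognises and that AAAGGTCA contains, stood in 10 of the 54 (18.5%) and in 14.7% of all windows. Such a match is a description of the letters and not evidence of binding.

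Specific peaks were found at 16 of the 42 genes, and most of these genes had peaks of the knockout list. A cKO-specific peak was assigned to 15 genes (35.7%) and a cWT-specific peak to 6 (14.3%). Among all coding genes 22.5% had a cKO-specific peak and 11.4% a cWT-specific peak. With no values per library neither share was tested. The median over the 42 genes was 0 peaks in both lists, as it was over all coding genes. In 10 genes the peaks were cKO-specific only, in 5 both lists had a peak (5.95% of all coding genes had both), and Nr1d1 alone had cWT-specific peaks only. Any peak at all was assigned to 38.1% of the family and to 27.9% of all coding genes. The median gene length was 44.2 kb in family genes with a peak and 31.6 kb in those without. The part of gene length in these shares was not tested.

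The 29 peaks were 21 cKO-specific and 8 cWT-specific, so 72.4% were from cKO (exact Clopper-Pearson 95% interval 52.8 to 87.3). All assigned peaks together were 71.7% cKO-specific, which lies inside that interval. The balance of the family thus did not differ from that of all assigned peaks beyond counting error. Nr4a1 held 7 of the peaks. Without it the share was 72.7% (49.8 to 89.3), from 16 cKO-specific and 6 cWT-specific peaks. Chromosome 15 carried 7 cKO-specific and 4 cWT-specific family peaks, at Nr4a1, Ppara and Rarg.

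**Figure D1:**
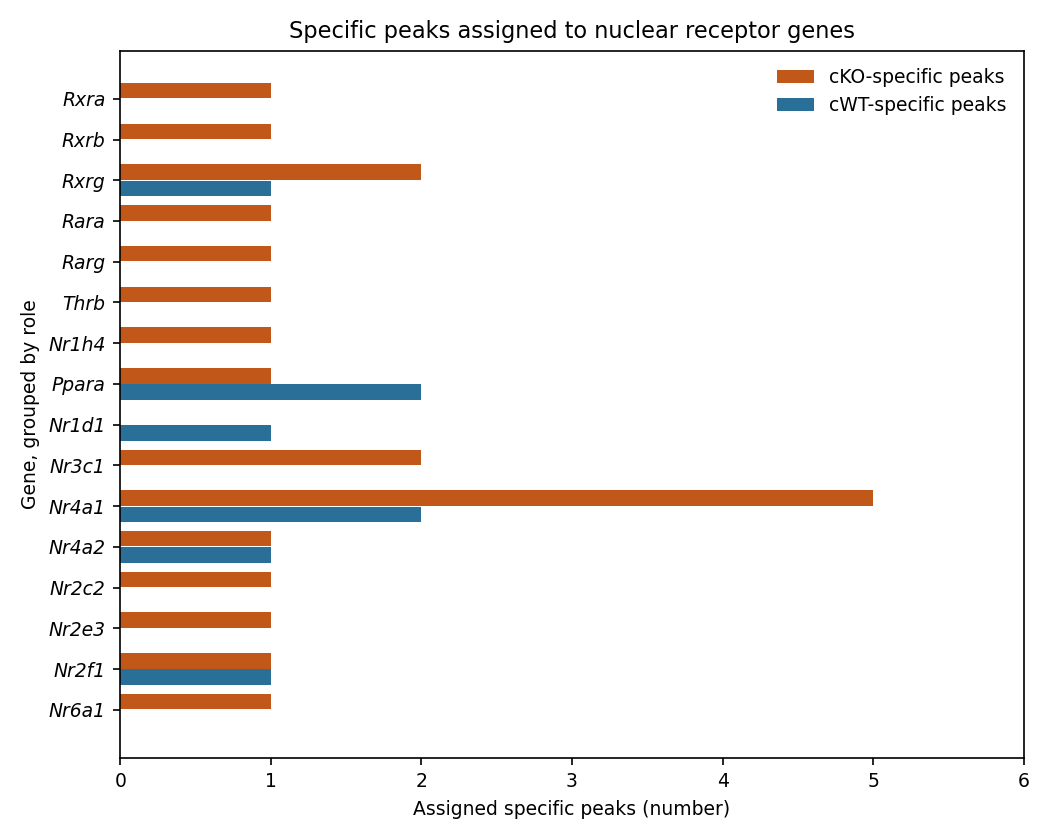
Number of specific peaks assigned to each of the 16 nuclear receptor genes that had any, cKO-specific above cWT-specific in each pair, ordered by role. Nr4a1 has 5 and 2, Ppara is the one gene with more cWT-specific (2) than cKO-specific (1) peaks among those with both, and 10 genes have a single peak.

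All 3 RXR genes, whose products are the shared partners of many other receptors, carried cKO-specific peaks. Rxrg had 2 cKO-specific peaks inside the gene and 1 cWT-specific peak in the intergenic stretch upstream of it. The first cKO-specific peak (chr1:167618224-167618667) is the one at the second start and had an authors' signal of 14.3. The second (chr1:167637348-167637528) had a signal of 21.4, higher than 76.2% of the cKO list, and lay 2185 bp from the gene's far end. The cWT-specific peak (chr1:167554076-167554499, signal 11.9) lay 44074.5 bp upstream. Rxra, a widely expressed RXR gene, had 1 cKO-specific peak 1900.5 bp past the end of the gene (chr2:27764981-27765458, signal 13.4). Rxrb had 1 inside the gene, 748.5 bp after its second start (chr17:34032984-34033213). Its signal of 7.36 was the lowest of the cKO-specific family peaks, higher than 2.11% of the cKO list.

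Of the retinoic acid receptor genes, whose proteins pair with RXR and respond to the vitamin A product retinoic acid, Rara and Rarg had 1 cKO-specific peak each. Both lay inside their gene. The Rara peak (chr11:98960249-98960651, signal 12.3, p-value 0.878) was centred at -4422 bp from the nearest of its 4 annotated starts, where negative is upstream, and 13900 bp from the noncoding Gm22061, nearer than to an end of Rara (14492 bp). The Rarg peak (chr15:102243267-102243730, signal 16.9) was 3001.5 bp downstream of a start. Rara also held 2 further cKO-specific peaks that were counted for a predicted gene within its span, Gm46294 (chr11:98948410-98948609 and chr11:98949759-98949991, signals 8.01 and 13.5). By position alone Rara therefore contained 3 cKO-specific and 0 cWT-specific peaks. Rarb had no assigned peak. A cKO-specific peak (chr14:16823784-16824226) lay deep inside it, 258 kb from its nearer end, and a cWT-specific peak lay 3098 bp from its end but 3046 bp from the neighbouring gene Top2b.

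Thrb, a thyroid hormone receptor gene, had 1 cKO-specific peak far upstream (chr14:17569199-17569502, signal 8.38). At 89874.5 bp it was the assigned peak closest to the limit of 100 kb, and it lay nearer to the noncoding Gm32269, at 29038.5 bp. The nearest peak beyond the limit, a cKO-specific one inside Thrb (chr14:17878508-17878763, signal 11.5), was 161 kb from an end. The peaks beyond the limit that had a family gene nearest numbered 3, this one, the Rarb peak and a cWT-specific peak inside Rora. Thra, the other thyroid hormone receptor gene, and Vdr, the vitamin D receptor gene, had none assigned.

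Among the sensors of lipids, bile acids and foreign compounds, 2 of 7 genes had peaks. Nr1h4, the gene of the bile acid receptor FXR, had 1 cKO-specific peak inside the gene (chr10:89461911-89462306). Its signal of 29.3, higher than 93.2% of the cKO list, was the highest of the family. Ppara, which encodes a fatty acid sensor that drives fatty acid oxidation, had a compact block of both genotypes upstream. Within 1.74 kb (chr15:85670282-85672016) lay 1 cKO-specific peak with a signal of 13.1 and, next to it, 2 cWT-specific peaks with signals of 8.30 and 9.57. The gap between the cKO-specific peak and the nearer cWT-specific one was 279 bp, the smallest between opposite lists in the family. The block was intergenic, 62981 to 64474.5 bp from Ppara, and the nearest annotated gene of any kind was the noncoding D130051D11Rik, 29911.5 to 31405 bp away. Ppard, Nr1h2 (the liver X receptor LXR-beta), Nr1h5, Nr1i2 (the xenobiotic receptor PXR) and Nr1i3 (its relative CAR) had none.

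The clock-linked receptors are the Rev-erb repressors (Nr1d1 and Nr1d2) and the ROR activators (among them Rora and Rorb), which share DNA elements in clock genes. Only Nr1d1 had an assigned peak, and it was cWT-specific (chr11:98782817-98783215, signal 17.6, p-value 0.738). It lay 7639 bp upstream of Nr1d1, inside the noncoding gene Gm31862. Its signal was higher than 70.1% of the cWT list, and it was the 1 cWT-specific family peak above that list's median. The cWT-specific peak inside Rora (chr9:69109497-69110009, signal 17.7) was 278 kb from an end of this 735 kb gene and so was not counted.

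Of the steroid receptors with a match, Nr3c1, which encodes the glucocorticoid receptor, had 2 cKO-specific and 0 cWT-specific peaks. One (chr18:39446010-39446281, signal 12.4, p-value 0.928) was inside the gene. The other (chr18:39560820-39561334) was intergenic, 41656 bp from Nr3c1 and 4974 bp from the noncoding Gm30909. Its signal was 26.9, higher than 89.9% of the cKO list, and its authors' p-value of 0.400 was the lowest of the family. In cWT no listed peak lay nearer to Nr3c1 than 400225.5 bp. Nr3c2, the mineralocorticoid receptor gene, had none, with the nearest listed peaks 818752 bp away in cKO and 1471810 bp away in cWT.

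The NR4A genes, orphan receptors that are transcribed within minutes of many stimuli, held the most family peaks. Nr4a1, also called Nur77, had 5 cKO-specific and 2 cWT-specific peaks. In order along the gene's strand they were 1 cKO-specific peak upstream (chr15:101248087-101248297, signal 8.23) and then the 2 cWT-specific ones around the upstream end of the annotated span (chr15:101252656-101252906, signal 7.45, and chr15:101253970-101254197, signal 6.42). Next came 3 cKO-specific peaks inside the span (chr15:101256006-101256447, signal 15.7; chr15:101256896-101257133, signal 9.67; chr15:101262561-101262914, signal 13.3). The last cKO-specific peak lay 1056 bp past the gene (chr15:101275676-101276026, signal 15.1). The cWT-specific pair thus lay between the first cKO-specific peak and the other 4, and no peaks of opposite lists overlapped. The cKO-specific signals were higher than 4.48% to 45.7% of the cKO list, and the cWT-specific ones higher than 3.18% and 0.802% of the cWT list.

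**Figure D2:**
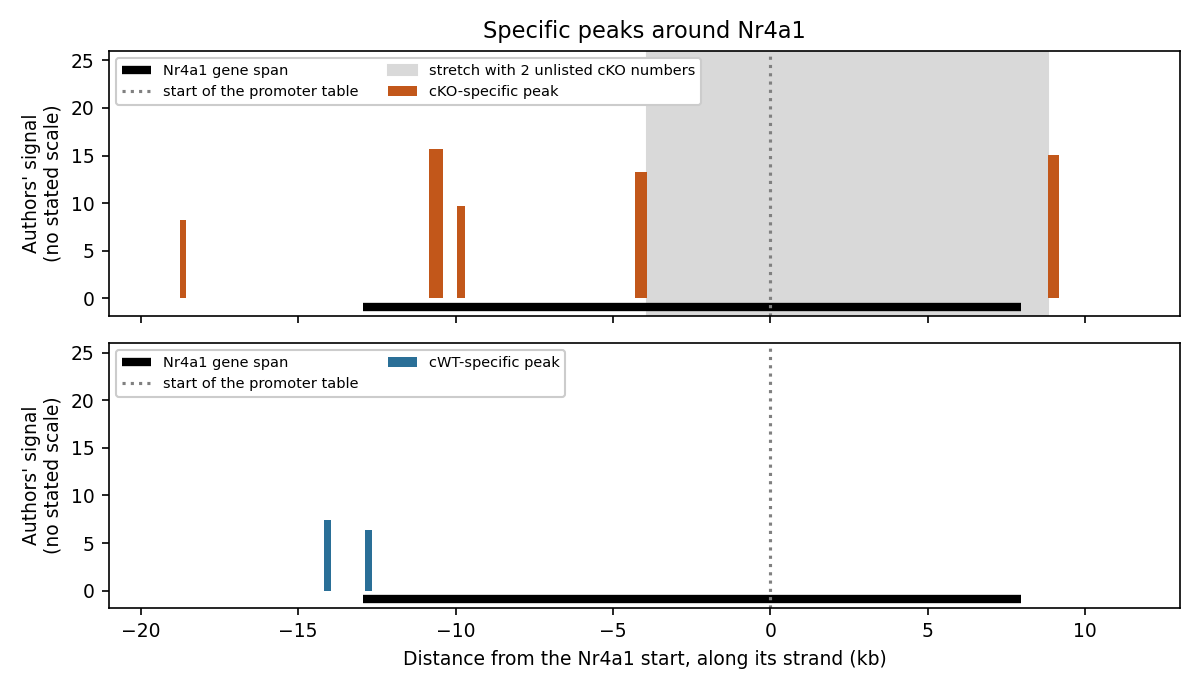
Position of each specific peak around Nr4a1 as distance in kb from the start in the promoter table, with bar height giving the authors' signal (no stated scale) and bar width the peak's width, cKO above and cWT below. Of the 5 cKO-specific peaks 4 lie before and 1 after a shaded stretch in which the numbering of the cKO list leaves 2 unlisted peaks, and both cWT-specific peaks lie at the upstream edge of the gene span.

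In the full called list, read from the numbers in the peaks' names, the 5 cKO-specific peaks of Nr4a1 were 5 of 7 consecutive peaks over 27.9 kb, and the 2 cWT-specific ones were consecutive over 1.54 kb. Over the genome 25.8% of numbered cKO peaks and 12.1% of numbered cWT peaks were listed. Both ends of such a run are listed by construction, so nothing is read from the larger share. The 2 unlisted cKO peaks fell between chr15:101262915 and chr15:101275675, a stretch that contains the annotated start of Nr4a1 at 101266846. An exact binomial test of the cKO share could be made for 1 family gene, since 271 coding genes had at least 5 peaks. For Nr4a1 the share was 71.4% (exact 95% interval 29.0 to 96.3), and the exact binomial p with Benjamini-Hochberg adjustment over the 271 genes was 1. None of the 271 passed (percent called 0), and 6 had an unadjusted exact p under 0.05. Nf1, with 7 cKO-specific and 0 cWT-specific peaks, had an unadjusted exact binomial p of 0.202, and Pip4k2a, with 10 and 0, had 0.0719. A gene with 7 peaks, as Nr4a1, thus could not pass toward cKO whatever its split, so no lack of a cKO excess is concluded. At least 5 cKO-specific peaks were assigned to 130 coding genes (0.594%).

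Nr4a2, also called Nurr1 and known from dopamine neurons and from repression of inflammatory genes in glia, had 1 cKO-specific peak inside the gene (chr2:57108234-57108653, signal 11.1). It had 1 cWT-specific peak 3637.5 bp past the gene's end (chr2:57103083-57103302, signal 8.59). A second cWT-specific peak (chr2:57115976-57116170, signal 6.95) also lay inside Nr4a2 but nearer to the predicted gene LOC105244150. Nr4a3 had none, with the nearest listed peaks 332881 bp away in cKO and 867795.5 bp away in cWT.

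The promoter windows of the NR4A genes are shown because the listed peaks at Nr4a1 and Nr4a2 lay away from the starts and covered none of these windows. The nearest listed peak to the Nr4a1 start was the cKO-specific one centred at -4108.5 bp. The nearest to the Nr4a2 start was the cWT-specific one inside the gene, 7930 bp away, and the assigned cKO-specific one lay 15559.5 bp downstream of the start. Capitals mark TGACG on either strand (CGTCA on the printed strand when reversed), the shorter form of the cAMP response element through which these genes are known to be induced. The windows are RefSeq's (GRCm38.p6), at chr15:101266596-101266895 (plus strand), chr2:57123954-57124253 (minus strand) and chr4:48045055-48045354 (plus strand).
Nr4a1: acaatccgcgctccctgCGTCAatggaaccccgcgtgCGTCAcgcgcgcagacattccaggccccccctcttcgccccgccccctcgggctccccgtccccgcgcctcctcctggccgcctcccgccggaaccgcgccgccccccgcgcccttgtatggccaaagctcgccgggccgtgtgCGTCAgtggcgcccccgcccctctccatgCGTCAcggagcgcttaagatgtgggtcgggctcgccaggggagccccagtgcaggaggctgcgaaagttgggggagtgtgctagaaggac
Nr4a2: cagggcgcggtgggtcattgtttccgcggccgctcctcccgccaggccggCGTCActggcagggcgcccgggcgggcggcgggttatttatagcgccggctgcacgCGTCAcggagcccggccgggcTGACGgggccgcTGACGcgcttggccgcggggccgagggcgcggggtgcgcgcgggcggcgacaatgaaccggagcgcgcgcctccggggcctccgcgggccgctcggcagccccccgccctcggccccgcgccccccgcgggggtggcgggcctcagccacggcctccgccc
Nr4a3: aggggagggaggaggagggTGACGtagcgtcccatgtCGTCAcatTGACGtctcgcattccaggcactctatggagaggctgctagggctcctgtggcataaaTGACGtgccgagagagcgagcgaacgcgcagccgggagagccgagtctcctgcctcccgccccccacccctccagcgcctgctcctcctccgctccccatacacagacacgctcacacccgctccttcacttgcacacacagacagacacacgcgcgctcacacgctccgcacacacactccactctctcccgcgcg
Each window held 4 copies of TGACG, and 0.325% of all 21263 windows held as many. At least 1 copy stood in 29.6% of the family windows and in 23.6% of all windows. The full palindrome TGACGTCA stood in 2 of the 54 family windows (3.7%), those of Nr6a1 and Nr2e1, and in 2.23% of all. TGACGTCA contains TGACG on both strands, so it counts toward both.

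Among the NR2 orphan receptors, 3 of 7 genes had peaks, each with 1 from cKO. Nr2f1, which encodes COUP-TF1, a regulator of brain patterning, had 1 peak of each list, both inside the noncoding gene A830082K12Rik upstream of it. The cKO-specific peak (chr13:78201589-78201859, signal 19.3) was 2851 bp upstream and the cWT-specific one (chr13:78210506-78211082, signal 8.91) 11921 bp upstream. Nr2c2, the gene of the orphan receptor TR4, had 1 cKO-specific peak inside it (chr6:92126919-92127445, signal 10.2), nearer to the noncoding Gm46967 (23829 bp) than to an end of Nr2c2 (35764 bp). Nr2e3, known from photoreceptors, had 1 cKO-specific peak inside its span, at -9405.5 bp from its annotated start (chr9:59959313-59959656, signal 14.5). Nr6a1, the germ cell nuclear factor gene, had 1 cKO-specific peak inside it (chr2:38797152-38797481, signal 23.6). It lay 73947.5 bp from an end and nearer to the noncoding Nr6a1os. The other NR0 and NR5 genes (Nr0b1, Nr0b2, Nr5a1 and Nr5a2), the estrogen-related orphans (Esrra, Esrrb and Esrrg), the NR2 genes Nr2c1, Nr2e1, Nr2f2 and Nr2f6, and Nr2c2ap had none.

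Most of the family's peaks had a signal below the median of their list, which was not tested. The median authors' signal was 13.4 among the 21 cKO-specific family peaks (range 7.36 to 29.3), beside 16.5 in the whole cKO list, and 6 of the 21 were above that list median. Among the 8 cWT-specific family peaks it was 8.75 (range 6.42 to 17.6), beside 13.7 in the whole cWT list, and 1 of the 8 was above. Every Nr4a1 peak was below its list's median, so this single locus weighs on both counts. Widths were near those of the lists, with medians of 351 bp beside 314 bp in cKO and 354 bp beside 322 bp in cWT. The median authors' p-value was 0.811 beside 0.818 in cKO and 0.932 beside 0.886 in cWT. It was below the list's median in 12 of the 21 cKO-specific and 1 of the 8 cWT-specific family peaks. None of the 243 cKO and 48 cWT peaks that the authors named primary belonged to the family. Such peaks were rare in the whole lists of 8615 and 3490 peaks, so their absence is not read as a trait of the family. P-values up to 0.5 were given to 2 of the 21 cKO-specific family peaks, at Rarg and Nr3c1, and to 0 of the 8 cWT-specific ones, beside 12.1% of the whole cKO list and 6.16% of the whole cWT list. In the authors' deposited table every family peak had an adjusted p-value of 0.979 in cKO or 0.981 in cWT. The signal's scale is not stated, so signals are not compared between lists.

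**Figure D3:**
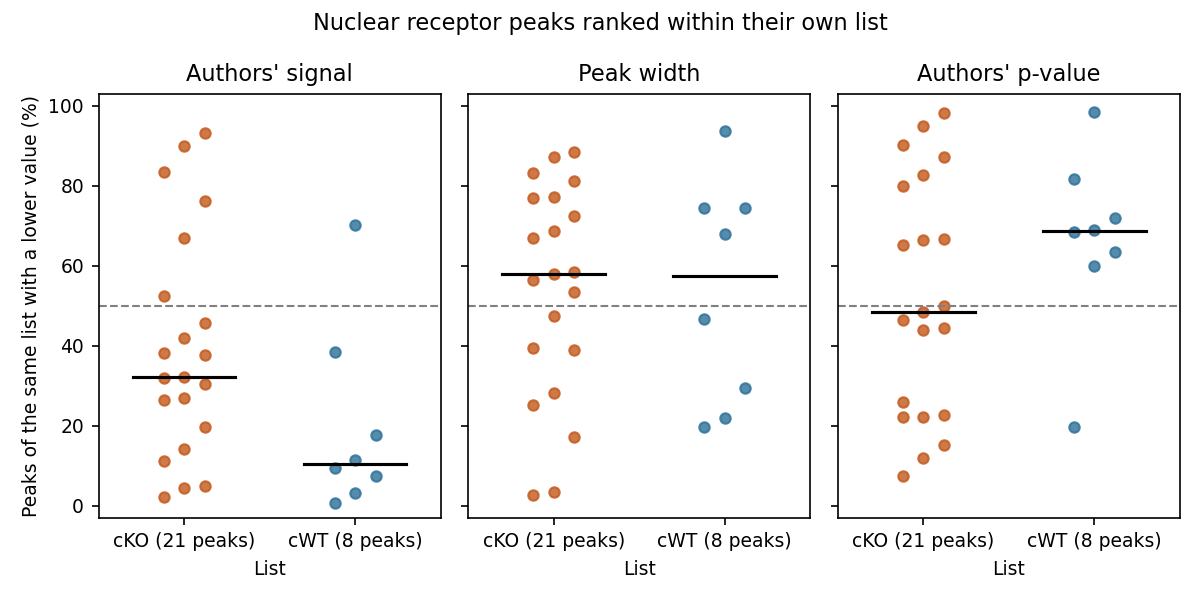
Rank of each family peak within its own list, as the percentage of that list's peaks with a lower authors' signal, width or authors' p-value, with cKO (21 peaks) left of cWT (8 peaks). Black bars are medians and the dashed line marks the middle of the list. Signals of 15 of the 21 cKO-specific and 7 of the 8 cWT-specific peaks lie under the line.

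By position, family peaks did not stand apart from their lists beyond counting error. Within 1000 bp of an end of a coding gene there were 0 of 21 cKO-specific family peaks, which allows a share of up to 14.3%, and 1 of 8 cWT-specific ones (12.5%, exact 95% interval 0.316 to 52.7). In the whole lists the shares were 13.7% and 15.9%. The whole lists also hold peaks over 100 kb from any coding gene end, which the family rule leaves out. Shares over assigned peaks alone would be somewhat higher and were not computed. Whether the bound of 14.3% exceeds such a share in cKO is therefore not known. Within 3000 bp there were 8 cKO-specific (38.1%, 18.1 to 61.6) and 2 cWT-specific (25%, 3.19 to 65.1) family peaks, beside 23.9% and 24.8%. Each interval includes the share of its whole list, and for the 0 of 21 the exact interval is 0 to 16.1. A gene's span can start far from its main promoter, so annotated starts were also used. By these, 2 of 19 cKO-specific family peaks (10.5%) lay within 1000 bp of a start of their gene, at Rxrg and Rxrb, and 0 of 8 cWT-specific ones. Among all assigned peaks whose gene has an annotated start, the shares were 13.8% of 6220 in cKO and 17.3% of 2393 in cWT. Of the cKO-specific family peaks 14 were inside their gene, 1 in a noncoding gene and 6 intergenic. Of the cWT-specific ones 1 was inside its gene, 2 in a noncoding gene and 5 intergenic. Exons were not given in the table used here, so exonic and intronic peaks were not separated.

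The numbers in the peak names allow a rough count of all called peaks around every family gene, including the 26 without an assigned peak. For each gene the stretch between the nearest listed peaks outside it was taken, and the numbers skipped or used in between were counted. The median was 10.5 numbered peaks per Mb in cKO and 14.9 in cWT over the 42 genes, beside 13.4 and 13.8 over all coding genes that could be measured. Such a stretch is short where listed peaks are dense and can hold several genes, so it describes a neighbourhood and not a gene.

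Some neighbourhoods were nearly empty in both lists. Around Nr2f2, which encodes COUP-TF2, a regulator of vascular and mesenchymal development, 0 cKO peaks were numbered in 3440 kb and 4 cWT peaks in 4810 kb. Around Esrrg it was 2 in 1740 kb and 6 in 2350 kb, around Nr5a2, known from liver and embryonic stem cells, 3 in 1140 kb and 5 in 1470 kb, and around Nr0b1 2 in 7820 kb and 35 in 19600 kb. Other genes without an assigned peak stood in stretches denser than the medians. Around Ppard, a fatty acid sensor known in macrophages, it was 15 cKO peaks in 348 kb and 21 cWT peaks in 516 kb, around Nr1h2 8 in 350 kb and 42 in 1520 kb, and around Vdr 20 in 966 kb and 25 in 1160 kb. Around Thra, which shares its stretch with the overlapping Nr1d1, it was 18 in 462 kb and 12 in 237 kb. The absence of an assigned peak thus covers both stretches with many called peaks that are not listed as specific and stretches with few called peaks.

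**Figure D4:**
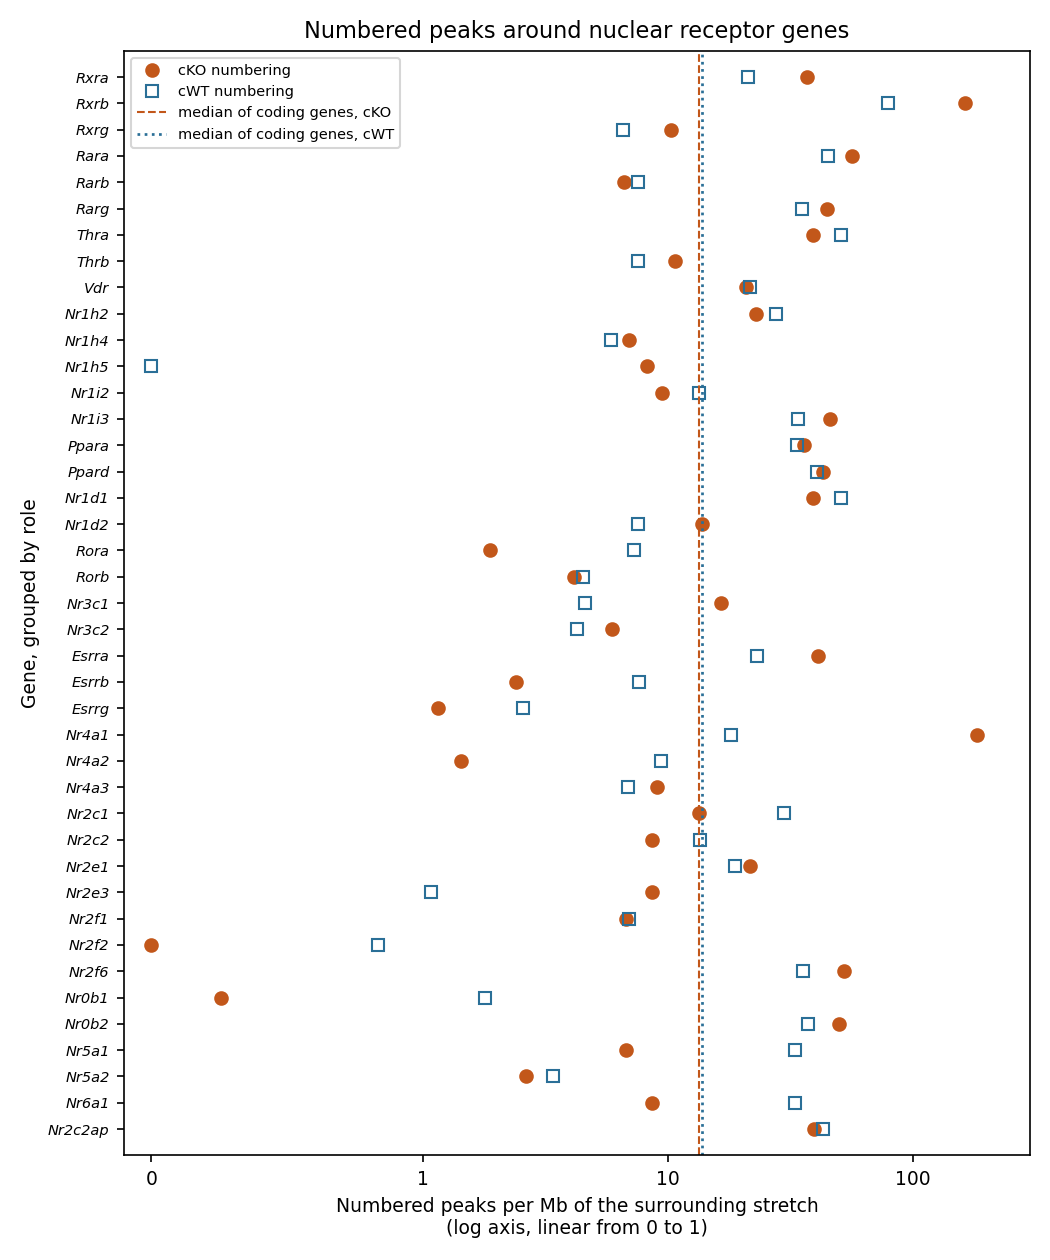
Numbered peaks per Mb (log axis, linear from 0 to 1) in the stretch between the nearest listed peaks around the nuclear receptor genes, with filled circles for cKO and open squares for cWT. Vertical lines are the medians over coding genes, 13.4 in cKO and 13.8 in cWT. Nr2f2 has 0 in cKO, Nr1h5 has 0 in cWT, and Nr4a1 (183 per Mb) and Rxrb (163 per Mb), whose stretches are short, stand highest in cKO.

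Genes that work with the receptors were examined from 5 lists. The shares over all coding genes, to be set beside each list, were 22.5% for cKO-specific and 11.4% for cWT-specific peaks. Of 24 coregulator genes 15 had a cKO-specific and 6 a cWT-specific peak (62.5% and 25%), with medians of 1 and 0 peaks. Tbl1xr1, a subunit of corepressor complexes, had 5 cKO-specific and 4 cWT-specific peaks. The coactivator gene Ncoa2 had 4 and 2 and Ppargc1b, a coactivator of mitochondrial genes, 3 and 1. Of the cKO-specific Ncoa2 peaks 2 adjoin and share their signal (chr1:13374066-13374331 and chr1:13374332-13374599, both 9.44).

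Of 14 glucocorticoid receptor target genes 8 had a cKO-specific and 5 a cWT-specific peak (57.1% and 35.7%). Fkbp5, a chaperone that dampens the glucocorticoid receptor, had 3 and 1, the last 688 bp from an end of the gene (chr17:28485250-28485672, signal 40.1). Despite this signal, the authors' p-value of that cWT-specific peak was 0.991. The whole cWT list had a median of 0.886 and a highest value of 0.991. Zbtb16, the gene of the transcription factor PLZF, had 3 and 2, and the kinase gene Sgk1 2 and 0. Of 16 target genes of liver X, retinoid and PPAR receptors, a list that includes the family gene Rarb, 8 carried cKO-specific peaks and 5 carried cWT-specific ones. Abcg1 had 5 and 1 and Abca1 4 and 0, both sterol exporters. Mylip, which lowers the LDL receptor, had 5 and 1. Of 14 clock genes 8 had a cKO-specific and 3 a cWT-specific peak, among them Bhlhe40 (2 and 0), Arntl, the gene of BMAL1 (1 and 2), and Hlf (1 and 1).

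Ligand supply and chaperone genes stood lowest of the 5 lists, with a cKO-specific peak at 8 of 26 (30.8%) and a cWT-specific peak at 4 (15.4%). These shares too were above those of all coding genes, 22.5% and 11.4%. Dhrs3, which encodes a retinal reductase, had 1 peak from cKO and 4 from cWT, all inside the neighbouring gene Vps13d. Fabp5, a fatty acid and retinoid carrier gene, had 1 and 1, and Ch25h, which makes the oxysterol 25-hydroxycholesterol, 1 and 0. The lists were not tested, and Per1 and Cyp26b1 each stand in 2 of them. They were chosen with earlier results of these data known, and gene length was not taken into account. No enrichment is therefore read from these shares.

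**Figure D5:**
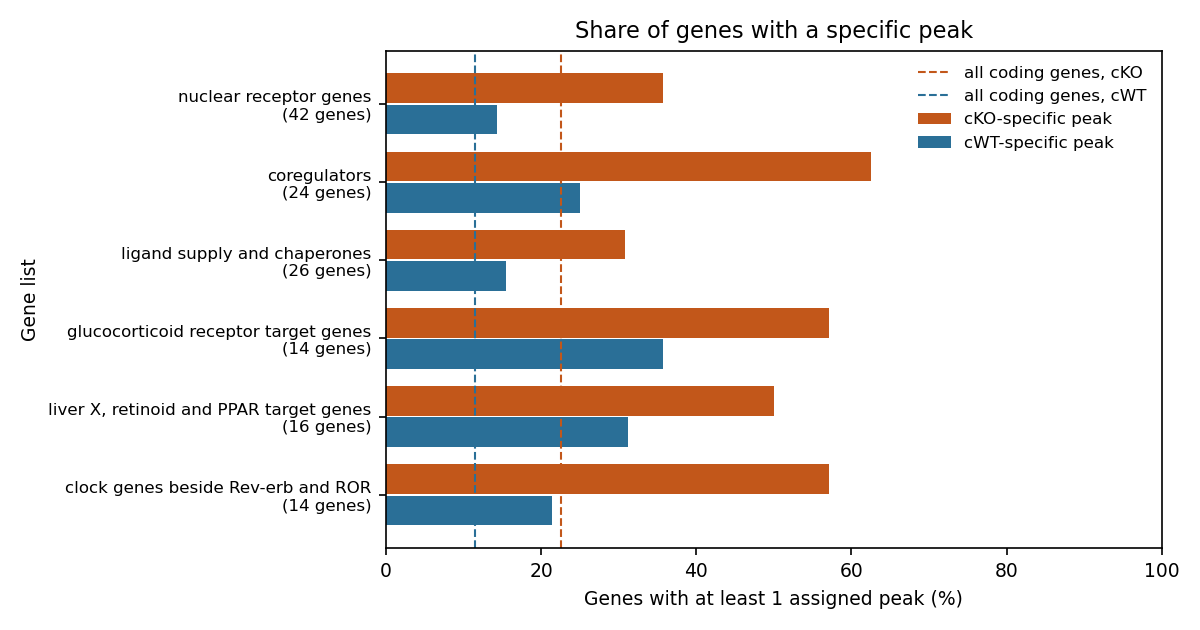
Percentage of genes with at least 1 assigned cKO-specific (upper bar) or cWT-specific (lower bar) peak in the nuclear receptor family and in 5 lists of genes that work with it. Dashed lines give the same over all coding genes, 22.5% for cKO and 11.4% for cWT. The family stands at 35.7% and 14.3%, and coregulators at 62.5% and 25%.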

How the data were processed

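The submitters' processing notes name Bowtie2 2.4.4, MACS2 2.2.7.1 and HOMER 4.11 with the builds mm10 and GRCm38; the step that used each, the handling of replicates and of the Tn5 offset, and the rule for calling a peak specific were not given in the sources used here. The authors deposited 1 headerless peak list per genotype, in which each peak has a score, a signal of no stated scale, and a p-value both raw and adjusted. The score the authors deposited equals -125 times log2 of the deposited p-value, rounded down, in every row; what that p-value tests is not stated. Peak numbers rise with position on each chromosome and were read as places in the full called list (up to 33339 in cKO and 28747 in cWT).

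Peaks were assigned by midpoint to the nearest end of a coding gene (RefSeq, GRCm38.p6; no strand or exons), within 100 kb; 11013 were assigned. Starts, strand and sequences came from the RefSeq promoter and miRNA tables. Genes with at least 5 peaks were tested by an exact two-sided binomial test with Benjamini-Hochberg adjustment, at a threshold of 0.05, tried on simulated data. Shares have exact 95% intervals; a count of 0 was bounded by 3 counts. Every family gene with a peak is named; of the other lists, up to 3 genes with the most cKO-specific and 2 with the most cWT-specific peaks. A family gene without an assigned peak and a coregulator gene are counted but not reported here. The members and lists were chosen with earlier results of these data known. Motifs, neighbours and stretches were chosen after the values were seen. Python 3.11.15, numpy 2.4.6, pandas 2.3.3, scipy 1.17.1 and matplotlib 3.10.9 were used.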

Additional observations from a re-analysis of the deposited data

How the results depend on the processing

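Counts of family genes depended on which peaks were kept. The number with a cKO-specific peak, 15, was 9 with assignment limited to 10 kb, 2 at authors' p-values up to 0.5 and 9 when only the better-scored part of each list was kept (scores from the list's median up). The number with a cWT-specific peak, 6, was 3, 0 and 1 in the same order. The cKO share of family peaks, 72.4%, was 100% at p-values up to 0.5 (2 peaks) and 92.3% for the better-scored part (12 cKO-specific and 1 cWT-specific peaks). P-values up to 0.5 kept 12.1% of the whole cKO list and 6.16% of the whole cWT list, so that filter raises the cKO share of all peaks too. The share of all assigned peaks was not computed under either filter, so no shift of the family is read from these values. The share of cKO-specific family peaks at gene ends was 38.1% with a window of 3000 bp in place of 1000 bp, and that of cWT-specific ones was 0% for the better-scored part. No cWT-specific family peak was left at p-values up to 0.5, so that share has no value there. These filters keep fewer peaks or widen the window by construction. Merging peaks within 500 bp, measuring from the peak's edge, leaving out peaks that overlap the other list, and letting all annotated genes compete moved neither count of genes by over 1.5 times. Measured from the peak's edge, 4.76% of cKO-specific and 25% of cWT-specific family peaks lay at gene ends. With all annotated genes competing, 10 genes had a cKO-specific and 4 a cWT-specific peak; Nr2c2, Nr6a1, Ppara, Rara and Thrb lost their cKO-specific peaks, and Nr1d1 and Ppara their cWT-specific ones. Merging left Nr4a1 with 4 cKO-specific peaks in place of 5. The test of balance passed for 0 genes in every setting, though under 10 genes could be tested in 2 of them. Even in the main setting 10 cKO-specific and 0 cWT-specific peaks (Pip4k2a) gave an unadjusted exact binomial p of 0.0719. The same 0 across settings therefore says nothing of a balance toward cKO. Leaving out Nr4a1 was chosen after seeing the data. No paired analysis was possible because no value in either list belongs to a single library, and no replicate could be left out for the same reason. The depth per library is unknown, so no limit of detection could be set.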

Other observations

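Several family genes stood beside specific peaks that were counted for a neighbour. Of the 26 genes with no assigned peak, 17 had a listed peak within 100 kb that lay nearer to another coding gene, among them Rarb and Nr2c1, and 9 had none. The same share was not computed over all coding genes without an assigned peak. These counts are therefore not read as a trait of the family. The cWT-specific peak near Nr2c1 (chr10:94139136-94139769, signal 31.1) lay 8089.5 bp from it and 5886.5 bp from Fgd6. Its authors' p-value was 0.977, above the median of 0.886 in the whole cWT list.

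Rxrb had 2 cKO-specific peaks of its neighbours close by, 1 counted for Col11a2 (chr17:34040241-34040554, 1994.5 bp from Rxrb) and 1 for H2-Ke6 (chr17:34027282-34027935, 4203.5 bp). Around Esrra, 7 cKO-specific and 0 cWT-specific peaks lay within 100 kb, counted for Ccdc88b, Plcb3, Vegfb and Fermt3, the gene of the integrin activator kindlin-3. Those at chr19:6856731-6857266 and chr19:6857267-6857681 adjoin and share their signal (20). The same holds for chr19:7017767-7018193 and chr19:7018194-7018672 (19), so the 7 are not all separate regions. All assigned peaks together were 71.7% cKO-specific, and the split around Esrra was not tested. Near Rora a cKO-specific peak lay 93 bp from an end of Anxa2, the gene of a membrane-binding annexin (chr9:69453559-69453993, signal 20.0), 65530 bp from Rora.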
